A study of Rattus norvegicus with 12 samples.

Results

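Laser-ablated bone was compared directly with bur-drilled bone, 4 arrays against 4, which are 8 of the 12 arrays of the series. The arrays were assigned to the groups by their titles. An Er:YAG laser emits infrared light that water absorbs strongly, so that it removes hard tissue through rapid local heating, while a rotating bur cuts by mechanical force. Cells exposed to heat or misfolded protein activate heat shock factors, which bind heat shock elements in the promoters of chaperone genes. Osteocytes, the cells embedded in bone matrix, secrete sclerostin, the Wnt inhibitor encoded by Sost, and make the phosphoprotein Dmp1. The direct comparison asks which transcripts differ with the cutting tool once a bone defect of the same area has been made.

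All 12 samples were total RNA of the calvaria, the flat bone of the skull vault, from rats 10 weeks old at 6 h after surgery. Strain and sex are not given in the sources used here. In the laser group a rectangle of 8 by 3 mm was ablated with 3 passes of a contact tip, at an output of 127 mJ per pulse and 20 Hz with pulses of 200 µs, moved at about 2 mm per second. In the bur group a rectangle of that size was drilled in a few passes at about 0.75 mm per second. In the control group the periosteum was taken off and the bone was left uncut. Age, tissue and sampling time were shared by all 3 groups.

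Signals are on the log2 scale after subtraction of the array's 75th percentile, which hides any shift common to the majority of genes. On the 8 treated arrays 67.8% to 73.7% of the non-control spots were well above background and 0 spots were saturated, and 22979 genes were tested. Each of 2 slides held 2 laser and 2 bur arrays, replicates 1 and 2 on slide 1 and replicates 3 and 4 on slide 2, while the 4 control arrays lay on slide 3. Spike-in spots were brighter on the treated arrays (8.13 to 8.83 in mean log2 processed signal, not centred) than on the control arrays (4.92 to 5.34). Control means are therefore given below as values with no test. Transcripts that define bone were bright in both groups: osteocalcin, Bglap, stood at 10.33, 10.54, 10.35 and 10.31 on the laser arrays and at 10.50, 10.05, 9.90 and 10.01 on the bur arrays. In 2 libraries markers of marrow cells stood apart. Laser replicate 1 had a mean erythroid signal of -0.34, while laser replicates 2 to 4 had 2.62 to 3.14. Bur replicate 3 had 3.34, while bur replicates 1, 2 and 4 had 1.35 to 1.65. Precision is set by the small number of arrays. Nothing in the labels states that each sample is a different animal, and p-values therefore measure only the spread between these samples, which may be technical.

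Laser-ablated bone had more RNA for the inducible chaperones Hspa1a and Hsph1 and the co-chaperone Dnaja1, for Spry1, an inhibitor of receptor tyrosine kinase signalling, and for Dmp1 than bur-drilled bone. In limma with slide as a block, all 12 arrays in the fit and Benjamini-Hochberg adjustment, 10 of the 22979 genes passed at an adjusted p under 0.05 (0.0435%), 9 higher with laser (0.0392%) and 1 lower (0.00435%). Of these, 5 have an official gene symbol and 5 are known here only by a transcript or probe name. Sost, lower on all 4 laser arrays, did not pass. At an unadjusted p under 0.05 there were 1995 genes (8.68%), 1257 higher (5.47%) and 738 lower (3.21%). All 4 laser arrays lay above all 4 bur arrays for 469 genes (2.04%) and below them for 332 (1.44%). The median difference over all genes was 0.01 on the log2 scale.

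The number of passing genes rested on every array. It was 4 without bur replicate 1, 3 without bur replicate 3, 2 without bur replicate 2 or control replicate 2, 0 without laser replicate 3 (limma, with 1318 genes at an unadjusted p under 0.05), and 1 without any one of the remaining 7 arrays. Hspa1a passed in 11 of these 12 fits, with a log2 difference of 3.66 to 4.09, and Dmp1 passed in 1, with 1.75 to 2.14. Hsph1 and Spry1 each passed in 1 of the 12 and Dnaja1 in 0, with the sign kept throughout. The control arrays entered the fitted contrast only through the shared estimate of the spread, but also counted in the filter and the choice of probe. With the filter set on 4 or more of the 8 treated arrays, the same 10 genes passed. With only the 8 laser and bur arrays in the fit 1 gene passed, as it did with no term for the slide. With the replicate number as a block on those 8 arrays, 0 genes passed in limma, with 1921 at an unadjusted p under 0.05.

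**Figure D1:**
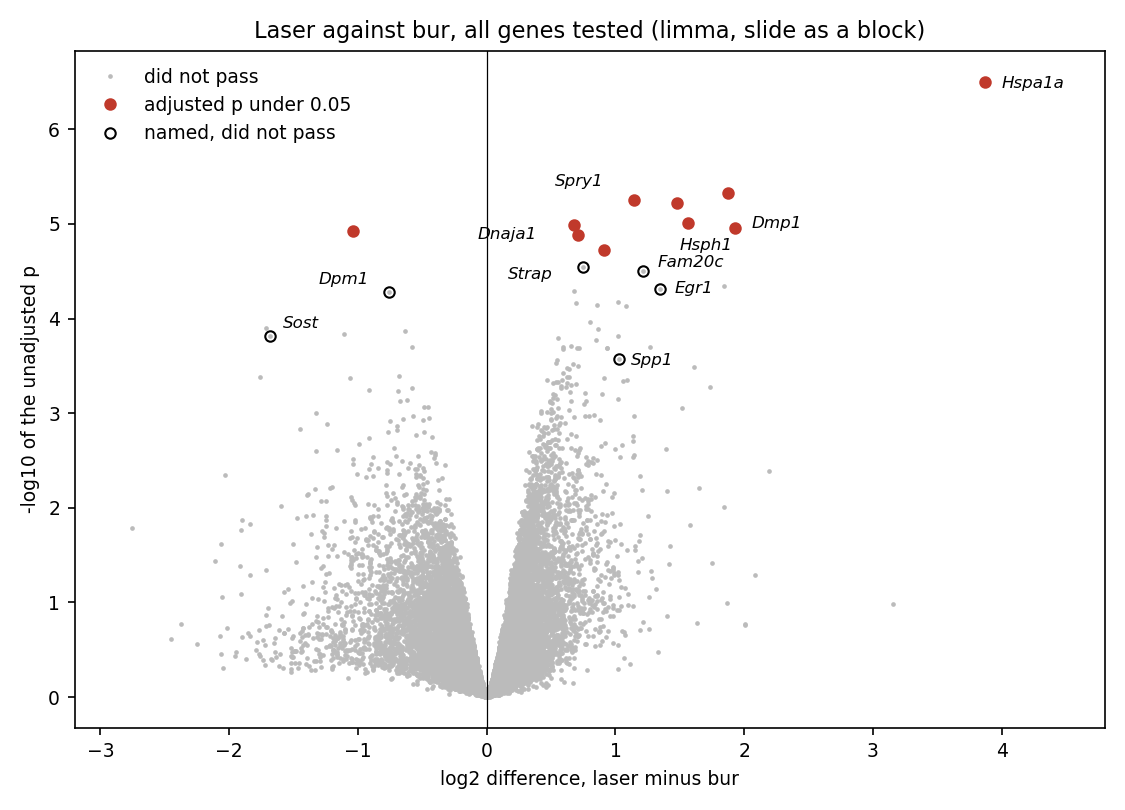
Log2 difference between laser and bur (x axis) against -log10 of the unadjusted limma p (y axis) for the 22979 genes tested. Filled red points are the 10 genes that passed after adjustment, of which 9 lie to the right of 0. Open circles are 6 genes that did not pass, Sost, Dpm1, Strap, Fam20c, Egr1 and Spp1.

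Hspa1a, the stress-inducible Hsp70 that holds and refolds damaged proteins, showed the largest difference of all genes that passed. Its signal was 4.53, 4.56, 5.64 and 6.14 on laser replicates 1 to 4 and 0.998, 1.503, 1.58 and 1.31 on the bur replicates, with a control mean of 0.53. The lowest laser array thus stood well above the highest bur array. Hspa1a was 14.6-fold higher with laser (log2 3.87, SE 0.33, n = 4 per group, limma adjusted p = 0.00718), by 3.29 on slide 1 and 4.45 on slide 2. A second Hspa1a probe gave a log2 difference of 3.50 (SE 0.56). Hspa1a lies on chromosome 20 (chr20:3859756-3863800, RefSeq annotation of GRCr8), close to a near-identical copy, Hspa1b. The probe that carries the name Hspa1b was not well above background on any array, and signal of the 2 copies may not be separable on the Hspa1a probes.

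Hsph1, an Hsp110 that recharges Hsp70 with nucleotide, was 2.96-fold higher with laser (log2 1.57, SE 0.19, limma adjusted p = 0.0335). The laser arrays read -0.37, -0.76, -0.01 and 0.14 and the bur arrays -2.12, -1.58, -1.52 and -2.05. The control mean of -1.20 lay between the groups, above every bur array. Dnaja1, an Hsp40 that hands clients to Hsp70, rose 1.63-fold (log2 0.71, SE 0.09, limma adjusted p = 0.0335), from 1.48, 1.60, 1.82 and 1.81 with bur to 2.20, 2.23, 2.599 and 2.499 with laser. Its control mean was 1.80, within the range of the bur arrays. On both genes the laser and bur arrays did not overlap, and the difference had one sign on both slides.

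**Figure D2:**
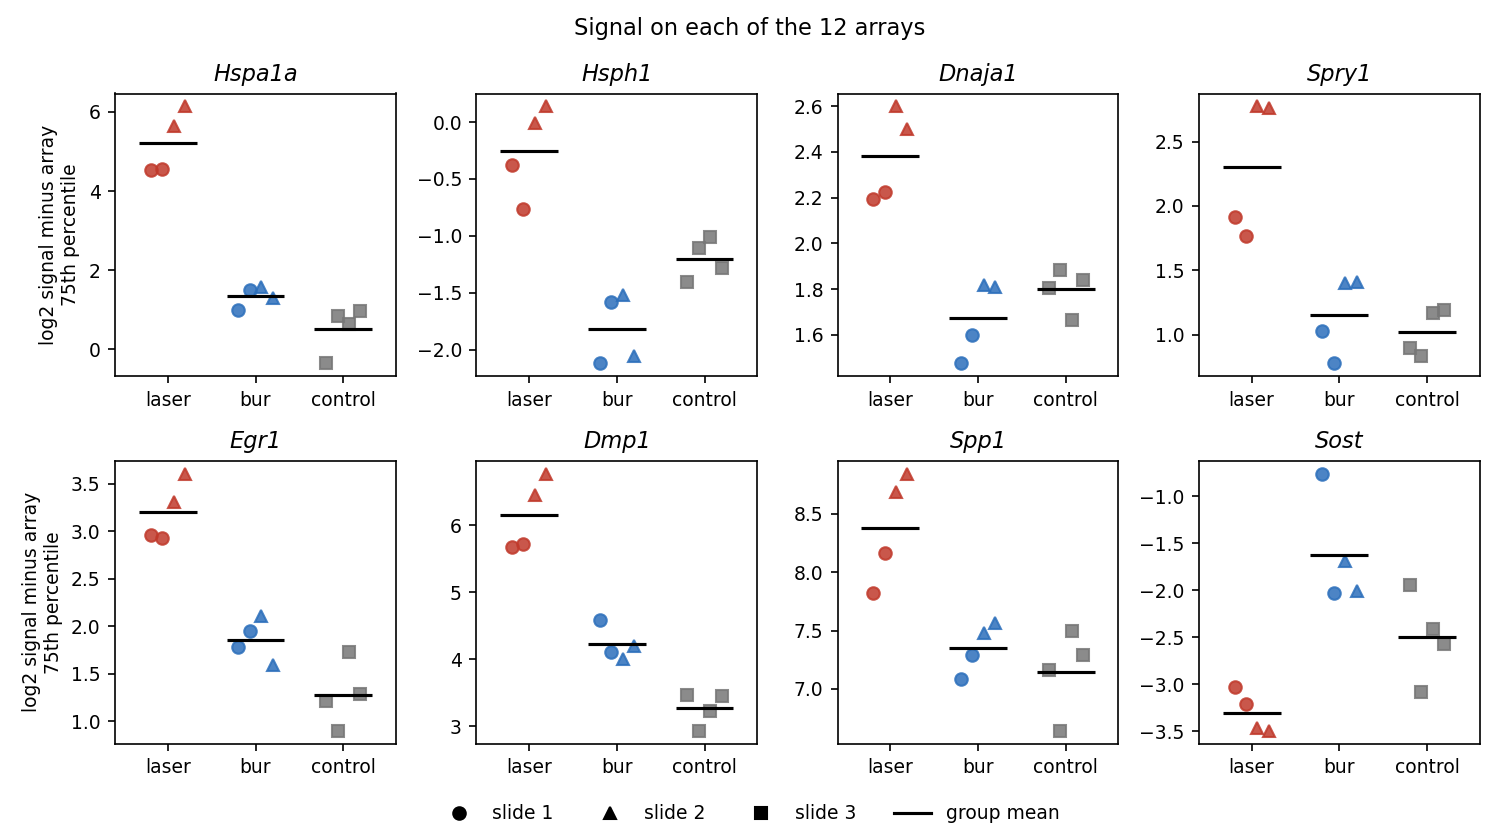
Log2 signal relative to the 75th percentile of the array (y axis) for 8 genes on each of the 12 arrays, by group (x axis), with circles for slide 1, triangles for slide 2, squares for slide 3 and a bar for the group mean. Each y axis has its own range. For all 8 genes the laser and bur arrays do not overlap, with Sost the only one of them lower with laser.

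The 250 bases upstream of the annotated gene start are shown for the 3 chaperone genes that passed, because heat shock factors are known to bind promoters of chaperone genes. The sequences come from RefSeq on GRCr8, all on the plus strand: chr20:3859506-3859755 for Hspa1a, chr12:10427118-10427367 for Hsph1 and chr5:60638154-60638403 for Dnaja1. Capitals mark matches to either of 2 forms of the heat shock element core, GAANNTTC or TTCNNGAA, which read the same on both strands and may overlap each other.
Hspa1a: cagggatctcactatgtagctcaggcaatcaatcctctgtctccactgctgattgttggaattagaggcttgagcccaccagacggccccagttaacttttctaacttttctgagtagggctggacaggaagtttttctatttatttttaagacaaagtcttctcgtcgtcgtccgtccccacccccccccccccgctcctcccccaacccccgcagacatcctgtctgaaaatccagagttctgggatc
Hsph1: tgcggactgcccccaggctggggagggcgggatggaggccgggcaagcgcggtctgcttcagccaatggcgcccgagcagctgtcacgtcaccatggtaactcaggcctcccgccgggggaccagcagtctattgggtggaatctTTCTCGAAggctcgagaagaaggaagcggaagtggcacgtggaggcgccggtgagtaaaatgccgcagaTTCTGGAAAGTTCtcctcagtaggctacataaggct
Dnaja1: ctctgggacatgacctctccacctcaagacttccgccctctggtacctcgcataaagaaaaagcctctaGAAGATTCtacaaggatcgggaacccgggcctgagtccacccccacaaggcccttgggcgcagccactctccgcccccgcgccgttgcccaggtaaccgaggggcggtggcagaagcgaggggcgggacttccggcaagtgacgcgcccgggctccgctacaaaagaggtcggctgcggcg

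Hsph1 held 3 matches, 2 of which overlap within the 36 bases before the gene start, and Dnaja1 held 1, which begins 181 bases before it. The Hspa1a window held 0, which says only that these letters are not in that window. The window follows the annotated start, and whether transcription of Hspa1a begins there in this tissue was not tested. Of the 27 heat shock list members with a promoter in the table, 16 held at least 1 match (59.3%), against 13.2% of all 27457 promoters of that length and 10.1% of the 12823 that belong to genes tested here. Among the list members with an unadjusted p under 0.05 the count was 6 of 8, and among the others 10 of 19. A match describes the letters and is not evidence of binding.

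The chaperone list held 34 genes, of which 32 were measured. Of these, 3 rose and 0 fell, 10 had an unadjusted p under 0.05 with laser higher and 0 with laser lower, and 26 had a positive difference. Over all genes 5.47% were higher and 3.21% lower at that unadjusted p, and 11924 of 22979 had a positive difference. The list's median difference was 0.19, against 0.01 over all genes, and it stayed between 0.16 and 0.27 under every alternative processing tried. Its mean signal ranged from 1.94 to 2.19 on the laser arrays and from 1.4995 to 1.91 on the bur arrays, so the groups did not overlap. That separation rested on Hspa1a: over the other 31 members the mean was 1.85 to 2.06 on the laser and 1.52 to 1.93 on the bur arrays, which overlap, and the median difference was 0.18. The 5 members whose laser arrays all lay above the bur arrays were Hspa1a, Hsph1, Dnaja1, Cryab and Dnajb4. Of all genes tested, 2.04% had all laser arrays above all bur arrays.

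Beyond the 3 that passed, Cryab, the small heat shock protein alpha-B-crystallin, read 5.73, 5.35, 5.89 and 5.71 with laser and 5.06, 4.803, 4.45 and 5.28 with bur (log2 0.77, SE 0.27, limma adjusted p = 0.451). Dnajb4 differed by 0.37 (SE 0.12), but a second Dnajb4 probe gave -0.09 (SE 0.13). Hspa8, the constitutive Hsp70, differed by 0.29 (SE 0.10), and its other 3 probes gave 0.27, 0.28 and 0.51. Cacybp and Ahsa1, which serve ubiquitin ligation and Hsp90, differed by 0.41 (SE 0.12) and 0.27 (SE 0.11). Dnajb1, a heat-inducible Hsp40, differed by 0.33 (SE 0.12), and Hspa9, the mitochondrial Hsp70, by 0.23 (SE 0.09) with 0.01 from a second probe. None of these 7 genes passed after adjustment. The remaining 22 members ran from -0.29 to 0.44 and had unadjusted p-values of 0.05 or more. Serpinh1, the collagen chaperone, differed by 0.44 (SE 0.22), the co-chaperone Bag3 by 0.31 (SE 0.22) and Hsp90ab1 by 0.23 (SE 0.11). Hsp90aa1 differed by 0.13 (SE 0.17), the small heat shock protein Hspb1 by 0.13 (SE 0.46) and Hsf1, the main heat shock factor, by -0.06 (SE 0.17). Hspb1 varied widely within the bur group, at 0.69, 2.84, 0.54 and 1.98.

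**Figure D3:**
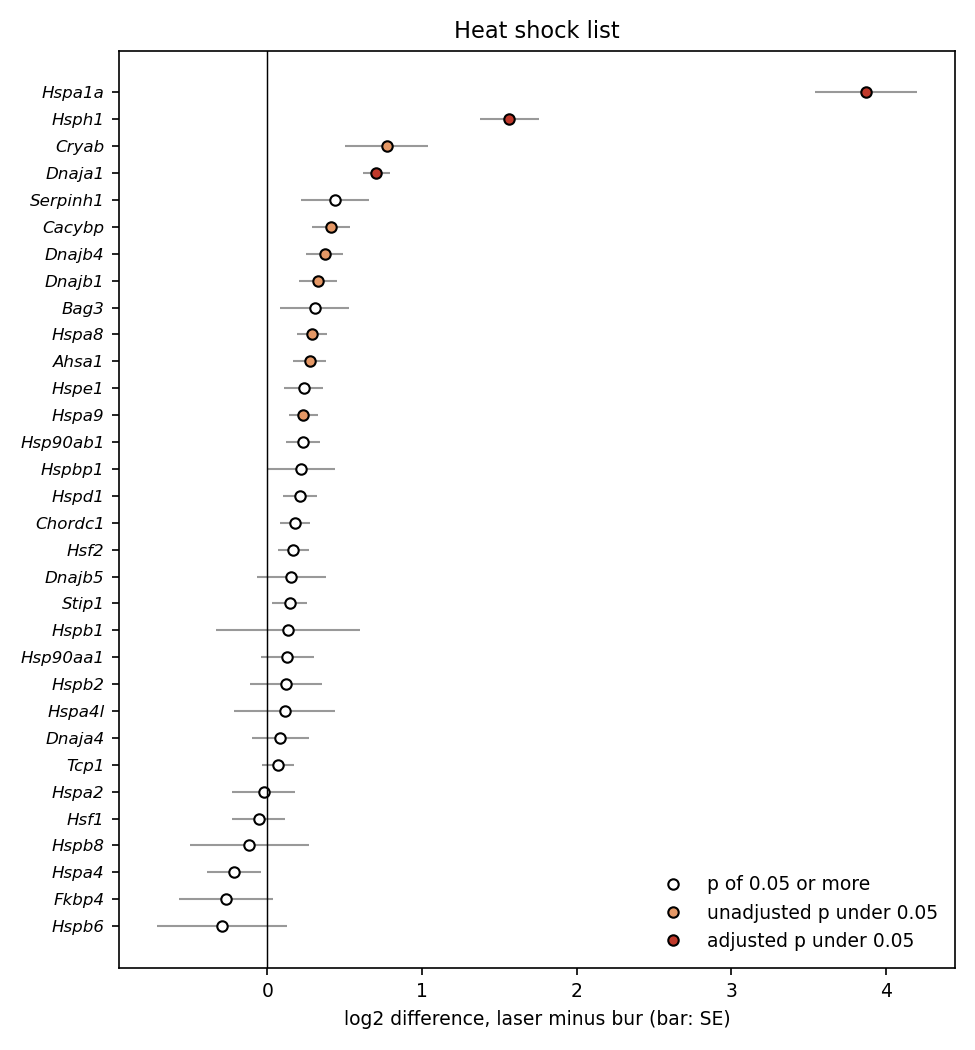
Log2 difference between laser and bur (x axis) with its standard error (bar) for the 32 measured members of the chaperone list. Red points passed after adjustment and orange points had an unadjusted p under 0.05. All 10 coloured points lie to the right of 0, and 6 of the 32 members lie to its left.

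Spry1 rose 2.21-fold with laser (log2 1.15, SE 0.13, limma adjusted p = 0.0335). Its signal was 1.91, 1.76, 2.77 and 2.76 on the laser arrays and 1.03, 0.78, 1.40 and 1.41 on the bur arrays. The groups did not overlap, although the laser arrays of slide 1 lay closer to the bur range than those of slide 2. A second Spry1 probe gave 1.30 (SE 0.14). Sprouty and Spred proteins damp the ERK kinase cascade and are themselves induced by it. Of the 13 measured ERK feedback genes Spry1 was the only one to pass, and Spry4 and Spred1 also had an unadjusted p under 0.05. At that unadjusted p, 3 members were higher with laser and 0 were lower. Over all genes 0.0392% passed with laser higher, and 5.47% had an unadjusted p under 0.05 with laser higher. Spry4 read -0.98, -1.26, -1.23 and -0.73 with laser and -2.28, -2.09, -2.11 and -1.79 with bur, without overlap (log2 1.02, SE 0.16, limma adjusted p = 0.0846). Spred1 differed by 0.39 (SE 0.15) by the probe used and by 0.19 (SE 0.15) and 0.68 (SE 0.29) by its other probes. The other 3 measured Sprouty and Spred genes had negative differences and did not pass, with -0.33 (SE 0.28) for Spry2, -0.73 (SE 0.43) for Spred2 and -0.36 (SE 0.26) for Spred3. Among the dual-specificity phosphatases, which inactivate ERK and related kinases, Dusp6 differed by 0.30 (SE 0.19), Dusp10 by 0.36 (SE 0.38), Dusp2 by 0.29 (SE 0.54), Dusp5 by -0.11 (SE 0.14), Dusp8 by -0.14 (SE 0.24) and Dusp1 by 0.02 (SE 0.21). The list's median of 0.02 was close to that of all genes and changed sign under some of the other settings.

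Immediate early genes are transcribed within minutes of a stimulus, without new protein synthesis. Of the 25 measured, 0 passed, 3 had an unadjusted p under 0.05 with laser higher, and 0 with laser lower. Over all genes these shares were 5.47% with laser higher and 3.21% with laser lower. Egr1, a zinc finger factor downstream of ERK, read 2.96, 2.93, 3.31 and 3.61 with laser and 1.78, 1.95, 2.11 and 1.60 with bur (log2 1.34, SE 0.20, limma adjusted p = 0.0751). No bur array reached the lowest laser array, and a second Egr1 probe gave 1.28 (SE 0.20). Klf4, another zinc finger factor, differed by 0.55 (SE 0.12, limma adjusted p = 0.227). Ier2 differed by 0.25 (SE 0.11), with 0.999 (SE 0.32) from a second probe. The AP-1 subunits pointed both ways: Fos differed by 0.71 (SE 0.37) and Junb by 0.46 (SE 0.23), while Fosl1 differed by -0.52 (SE 0.29) and Fosl2 by -0.53 (SE 0.25). The orphan receptors Nr4a1, Nr4a2 and Nr4a3 differed by -0.03, -0.15 and -0.01. The list's median of 0.17 ranged from -0.05 to 0.27 when single arrays were left out.

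Hbegf, an EGF receptor ligand, differed by 0.70 (SE 0.20, limma adjusted p = 0.383), with -1.005, -1.69, -1.32 and -1.24 on the laser arrays and -1.52, -2.32, -2.34 and -1.85 on the bur arrays. Hbegf thus overlapped between groups. Its receptor Egfr differed by -0.77 (SE 0.30), by -0.19 on slide 1 and -1.35 on slide 2, and 0 of the 10 measured EGF family genes passed.

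Dmp1, a secreted phosphoprotein of osteocytes that nucleates mineral, was 3.80-fold higher with laser (log2 1.93, SE 0.24, limma adjusted p = 0.0335). The laser arrays read 5.68, 5.71, 6.45 and 6.76, the bur arrays 4.58, 4.11, 3.997 and 4.20, and the control mean was 3.27. All laser arrays lay above all bur arrays, by 1.35 in the mean on slide 1 and by 2.51 on slide 2. Dmp1 lies on chromosome 14 (chr14:5833111-5867154, GRCr8). The RNA is of whole tissue, so here and below more cells of a type and more RNA per cell cannot be told apart.

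Sost pointed the other way. Its signal was -3.03, -3.21, -3.47 and -3.50 on the laser arrays and -0.76, -2.03, -1.69 and -2.01 on the bur arrays, around a control mean of -2.502. Every laser array was lower than every bur array, and bur replicate 1 was the highest of all. Sost was 3.21-fold higher with bur than with laser (log2 -1.68, SE 0.29), by -1.73 on slide 1 and -1.63 on slide 2. The limma adjusted p over all genes was 0.126, so Sost did not pass, and it passed in 0 of 17 other settings and 0 of 12 fits without 1 array. The 2-sided exact permutation test of this single gene gave p = 0.02857, the smallest that 70 assignments of 8 arrays allow. With laser and bur exchanged only within a slide, 36 assignments remain and the exact permutation p was 0.05556, again the smallest possible, so that test cannot reach 0.05. Both values follow from the lack of overlap and add nothing to it. The size of the difference depended on the background correction, with -0.73 after normexp and -1.11 in the authors' normalized values. Sost lies on chromosome 10 (chr10:87412722-87415766, GRCr8), and its single probe was well above background on all 8 arrays.

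The remaining 10 measured osteocyte genes lay between these 2. Fbln7, an adhesion protein, differed by -0.44 (SE 0.17, unadjusted p = 0.03), with 0.30 (SE 0.20) from a second probe, so its direction is not settled. Phex, an endopeptidase that limits phosphate wasting, differed by 0.61 (SE 0.29), and Dkk1, a Wnt inhibitor, by 0.30 (SE 0.18). Mepe, a matrix protein of osteocytes, read 6.98, 6.65, 6.86 and 7.24 with laser and 7.07, 6.77, 7.19 and 6.51 with bur, a difference of 0.05 (SE 0.20) whose sign changed with the processing. The summed level of the list overlapped between groups, with a mean signal of 2.36 to 2.85 on laser and 2.28 to 2.87 on bur arrays. Its median difference was 0.13, and -0.03 on slide 1 alone.

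Among 19 osteoblast and bone matrix genes, 0 passed, 15 had a positive difference, and 3 had an unadjusted p under 0.05, all with laser higher. Over all genes 11924 of 22979 had a positive difference, and 5.47% had an unadjusted p under 0.05 with laser higher. Spp1, osteopontin, an acidic phosphoprotein that binds mineral and integrins, read 7.82, 8.17, 8.69 and 8.84 with laser and 7.09, 7.29, 7.48 and 7.56 with bur. These did not overlap (log2 1.03, SE 0.19, limma adjusted p = 0.156). Smpd3, a sphingomyelinase needed for mineralisation, differed by 0.71 (SE 0.23), and the fibrillar collagen Col24a1 by 0.63 (SE 0.24). Genes of the osteoblast programme itself did not reach an unadjusted p of 0.05: Runx2 by 0.18 (SE 0.17), Sp7 by -0.14 (SE 0.29), Col1a1 by 0.11 (SE 0.17) and Alpl by -0.32 (SE 0.22). The list's median was 0.24, and 0.09 with quantile normalization. Dlx3, a homeobox factor of osteoblasts, was high on 3 arrays of slide 1 (8.75 and 8.71 with laser, 8.40 with bur) and between 5.32 and 5.81 on the other 5 treated arrays, which follows neither the group nor the slide.

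**Figure D4:**
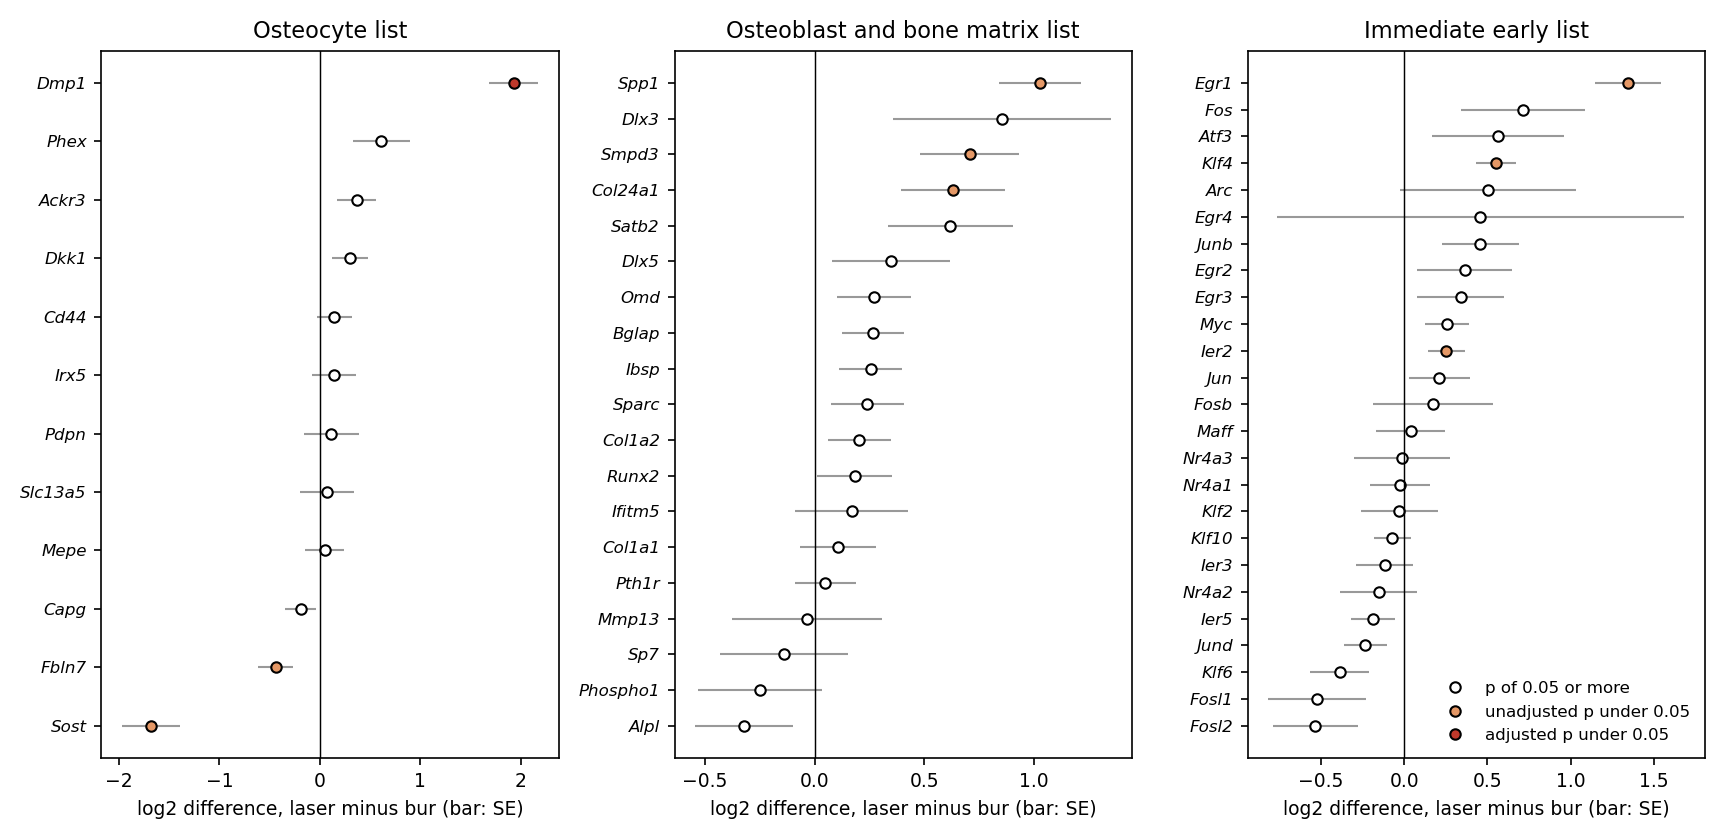
Log2 difference between laser and bur (x axes, each with its own range) with its standard error for the measured osteocyte genes (12), osteoblast and bone matrix genes (19) and immediate early genes (25). Dmp1 is the only member that passed, Sost lies at -1.68, and 15 of the 19 osteoblast genes lie to the right of 0.

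Outside the lists, some genes that did not pass were named after their values were seen. Hspb7 and Etv5 were not among those next below the threshold. Fam20c, the Golgi kinase that phosphorylates Dmp1, osteopontin and other secreted proteins, read 1.91, 1.73, 2.46 and 2.502 with laser and 1.02, 0.66, 0.77 and 1.29 with bur (log2 1.22, SE 0.17, limma adjusted p = 0.0598). Strap, an RNA-binding and receptor-associated protein, differed by 0.75 (SE 0.10, limma adjusted p = 0.0590), with a control mean of 1.06 above every laser array. Dpm1, a dolichol mannose synthase, was lower on every laser array (log2 -0.76, SE 0.11, limma adjusted p = 0.0751). Mettl1, a tRNA methyltransferase, differed by 0.86 (SE 0.13), with 0.44 (SE 0.15) from a second probe, and the pseudokinase Trib2 by 0.70 (SE 0.11). Hspb7, a small heat shock protein that was in no list, differed by 1.52 (SE 0.33, limma adjusted p = 0.227), without overlap. Etv5, an ETS factor induced by ERK signalling, differed by 0.82 (SE 0.21, limma adjusted p = 0.320), also without overlap. Of all genes tested, 2.04% had all laser arrays above all bur arrays.

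Of the 5 passing transcripts with no gene symbol, FM105957 showed the largest difference (log2 1.88, SE 0.21, limma adjusted p = 0.0335). It read 4.14, 4.48, 5.31 and 5.45 with laser and 3.05, 2.67, 2.74 and 3.41 with bur. On the array design's build, RGSCv3.4, its probe lies at chr2:79418706-79418765, 600 bases from the nearest probe of Ankh, which exports pyrophosphate, an inhibitor of mineralisation. The Ankh probe itself read 2.504, 2.66, 3.12 and 3.83 with laser and 2.26, 1.72, 1.68 and 1.86 with bur (log2 1.15, SE 0.25, limma adjusted p = 0.236), and whether FM105957 belongs to that gene was not tested. FQ229693 has no position in the design and differed by 1.48 (SE 0.17). CO396446, on chromosome 14, differed by 0.91 (SE 0.12, limma adjusted p = 0.0428). The nearest named probes there, of Septin11 and Ccni, lie 5936 and 7372 bases away and gave -0.03 and -0.0049.

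The remaining 2 are shown by their probes of 60 bases, the only identity that the files give for the first and the basis for the annotation of the second.
A_64_P047764: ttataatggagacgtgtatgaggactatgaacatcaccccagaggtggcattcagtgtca
ENSRNOT00000001807: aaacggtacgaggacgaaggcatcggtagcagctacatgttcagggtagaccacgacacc
A_64_P047764 differed by 0.68 (SE 0.08) and was higher with laser on both slides. ENSRNOT00000001807, annotated as the histone methyltransferase Setd1b, was the only passing transcript that was lower with laser. It read -4.01, -3.63, -4.09 and -4.35 with laser and -2.89, -2.89, -2.97 and -3.15 with bur (log2 -1.04, SE 0.13, limma adjusted p = 0.0335), and 3 of the 4 laser arrays placed it well above background. The 2 probes that carry the name Setd1b gave -0.23 (SE 0.17) and -0.34 (SE 0.12), so the size of the fall was not shared by the gene's other probes. The transcript passed in 7 of 16 other settings and 0 of 12 fits without 1 array. Its difference shrank to -0.23 after normexp (limma adjusted p = 0.64) and to -0.46 in the authors' normalized values.

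Of 22 measured collagen chains 13 had a negative difference and 0 passed. At an unadjusted p under 0.05, 6 were lower with laser and 1, Col24a1, was higher. The 6 were the basement membrane and beaded filament chains Col18a1, Col4a1, Col4a2, Col6a1, Col6a2 and Col6a3. Over all genes 11055 of 22979 had a negative difference, and 3.21% had an unadjusted p under 0.05 with laser lower. Col6a1 read 3.22, 3.68, 2.65 and 2.15 with laser and 3.64, 3.93, 3.85 and 3.76 with bur (log2 -0.87, SE 0.31, limma adjusted p = 0.46). On slide 1 the difference was -0.34 and on slide 2 it was -1.41, and the other 5 chains likewise differed more on slide 2. The list's median was -0.22, with -0.13 on slide 1 and -0.43 on slide 2. The periosteal and fibroblast markers had a list median of 0.11 on slide 1, where the sign was opposite to that of the collagens, and of -0.70 on slide 2. Without single arrays the collagen median ran from -0.37 to -0.04. Postn, a matrix protein of the periosteum, read 1.93, 3.57, 1.32 and 0.55 with laser and 3.71, 4.73, 4.10 and 3.08 with bur (log2 -2.06, SE 0.78, limma adjusted p = 0.495). Of those 15 markers 5 had a positive and 10 a negative difference, their mean signal was 2.14 to 3.19 on laser and 2.87 to 3.24 on bur arrays, and their part in the collagen values was not tested.

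Of 11 measured secreted Wnt antagonists 0 passed and 2, Sost and Sfrp2, had an unadjusted p under 0.05, both with laser lower. Over all genes 3.21% had an unadjusted p under 0.05 with laser lower. Sfrp2, a decoy that binds Wnt ligands, read 0.16, 0.34, -2.01 and -0.52 with laser and 1.41, 1.502, 0.86 and 1.80 with bur, without overlap (log2 -1.90, SE 0.64, limma adjusted p = 0.435). The difference of Sfrp2 was -1.21 on slide 1 and -2.60 on slide 2. Of the 11 antagonists 5 had a positive difference, and the list's median was -0.11, with 0.08 on slide 1 and -0.78 on slide 2. Among 11 Wnt target genes 0 passed, and Ccnd1, cyclin D1, differed by 0.77 (SE 0.24, limma adjusted p = 0.405). Tnfrsf11b, osteoprotegerin, the soluble decoy receptor of RANKL, read 2.32, 2.94, 3.53 and 3.93 with laser and 1.51, 2.19, 1.80 and 2.67 with bur (log2 1.14, SE 0.27, limma adjusted p = 0.278). It was the member with the smallest p among 16 RANKL axis and osteoclast genes, of which 0 passed. Among 24 matrix remodelling genes 0 passed and 18 had a negative difference, against 11055 of all 22979 genes. At an unadjusted p under 0.05, 4 were lower with laser, against 3.21% of all genes, and 1 was higher. The latter was Mmp8, the neutrophil collagenase (log2 0.82, SE 0.32). Mmp19, a metalloproteinase, differed by -1.01 (SE 0.28) and Mmp3, stromelysin, by -1.48 (SE 0.62).

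Of 17 interferon-stimulated genes 0 passed, 15 had a negative difference and 3 an unadjusted p under 0.05, all with laser lower. Over all genes 11055 of 22979 had a negative difference, and 3.21% had an unadjusted p under 0.05 with laser lower. The list's median was -0.14, 7 members were lower on both slides, and its mean signal overlapped between groups, with 0.92 to 1.496 on laser and 1.28 to 1.56 on bur arrays. Stat2, which carries type I interferon signals to the nucleus, read 2.51, 2.57, 2.40 and 2.58 with laser and 2.79, 2.76, 3.07 and 3.00 with bur (log2 -0.39, SE 0.10, limma adjusted p = 0.322). The groups did not overlap for Stat2. Mx1 and Irf1 differed by -0.28 (SE 0.12) and -0.34 (SE 0.15). The difference of Irf1 was -0.18 without bur replicate 3 and -0.09 on slide 1 alone. Of 21 chemokines 17 had a negative difference and 2 had an unadjusted p under 0.05, the interferon-induced Cxcl9 and Cxcl10. Cxcl9 read -4.42, -5.29, -4.30 and -4.67 with laser and -3.68, -2.62, -3.84 and -3.24 with bur (log2 -1.33, SE 0.29, limma adjusted p = 0.235). These are dim values, well above background on 2 of 4 laser arrays, and Cxcl9 differed by -0.24 after normexp. Cxcl10 differed by -1.36 (SE 0.49), by -0.81 without bur replicate 3 and by -1.94 without bur replicate 4. Chemokines of neutrophil and monocyte recruitment did not reach an unadjusted p of 0.05, with -0.58 (SE 0.42) for Cxcl1, -0.0007 (SE 0.47) for Cxcl2 and -0.46 (SE 0.58) for Ccl2.

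Other stress and injury lists held 0 passing members. Over all genes 11924 of 22979 had a positive difference, and 5.47% had an unadjusted p under 0.05 with laser higher. The unfolded protein and integrated stress list had a median of 0.17, with 14 of 20 members positive and 3 with an unadjusted p under 0.05 with laser higher. Its leading member Edem1, which targets misfolded glycoproteins for degradation, differed by 1.14 (SE 0.27) by the probe used and by -0.03 and -0.43 by 2 others. Oxidative stress genes had a median of -0.03 and p53 targets of -0.01. Of 15 oxidative stress genes 2 had an unadjusted p under 0.05, both with laser lower, against 3.21% of all genes. Of 17 p53 targets 0 had an unadjusted p under 0.05. NF-kB feedback genes, SOCS and STAT3 feedback genes, inflammatory cytokines and prostaglandin genes had medians of -0.01, -0.03, 0.03 and 0.02, all near the 0.01 of all genes. Thus 3 of the 40 lists, the chaperone, ERK feedback and osteocyte lists, held a gene that passed.

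Marker lists of marrow and blood cells held 0 passing members, with 1 of them at an unadjusted p under 0.05, a granulocyte precursor gene. The erythroid list's median difference was 0.12 and ran from -0.58 to 0.94 when single arrays were left out, and that of cell cycle genes was 0.16 and ran from -0.21 to 0.53. Without laser replicate 1 the log2 difference of Hspa1a was 3.99, of Dmp1 2.05 and of Sost -1.71. Without bur replicate 3 they were 3.81, 1.77 and -1.63. Over all 22979 genes 11924 had a positive difference and 11055 a negative one. Granulocyte precursor markers had the highest list median, 0.38, with 10 of 11 members positive and a range of 0.0013 to 0.71 when single arrays were left out. Neural and glial markers had the lowest, -0.48, with 13 of 17 negative, 0 with an unadjusted p under 0.05 and only 7 of the 17 well above background on all 8 arrays. When single arrays were left out that median ran from -1.21 to -0.04.

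**Figure D5:**
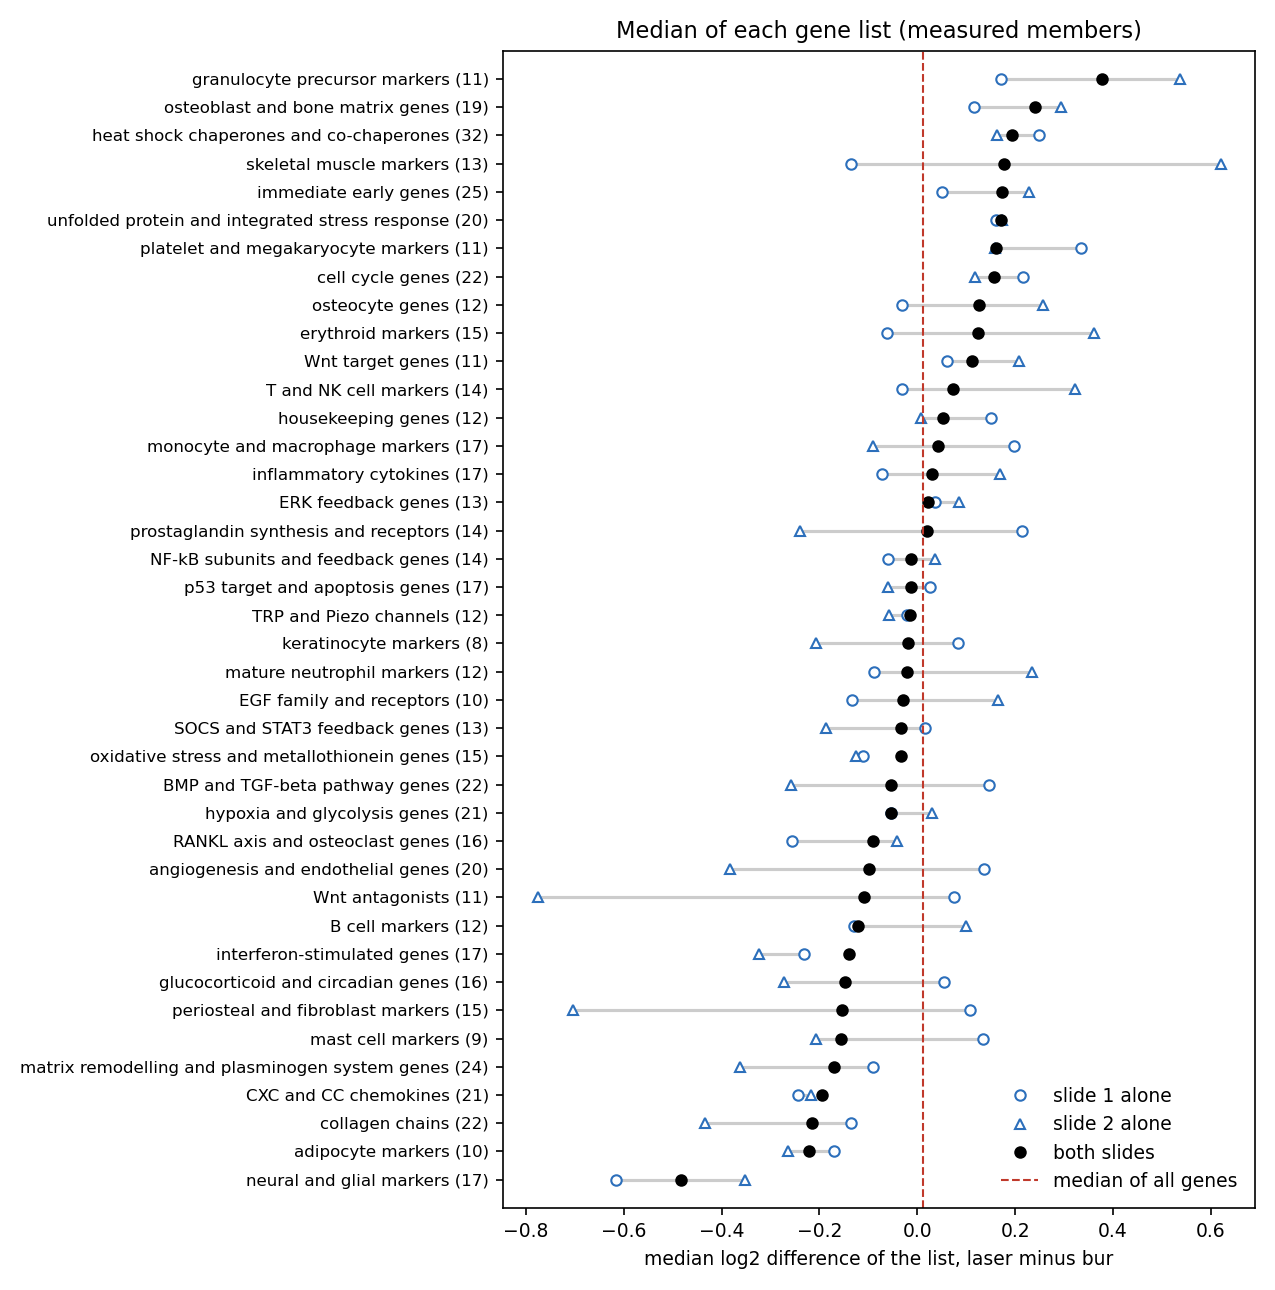
Median log2 difference between laser and bur (x axis) over the measured members of each of the 40 lists (y axis, number of members in brackets), for both slides together and for each slide alone, with the median of all genes as a dashed line. The chaperone list lies at 0.19 with both slides to the right of the line, the collagen list at -0.22 with both to its left, and several lists have their 2 slides on opposite sides.

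Whether the difference between laser and bur itself differed between the slides was tested with an interaction term. In limma 0 of 22979 genes passed (0%), and 585 had an unadjusted p under 0.05 (2.55%). Dmp1 had the difference of 1.35 on slide 1 and 2.51 on slide 2, with an unadjusted limma p of 0.006484 for the interaction and an adjusted p of 0.9998. For Hspa1a the unadjusted limma p was 0.07546. On both slides alike 7341 genes were higher with laser (31.9%) and 6231 were lower (27.1%).

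The authors' deposited table of the laser and bur comparison holds 24920 probes, of which 1 passed an adjusted p of 0.05 (0.00401%). That probe was the second Hspa1a probe, with a log2 difference of 3.29 and an adjusted p of 0.01088 in the authors' deposited table. In the authors' deposited table the adjusted p was 0.0519 for Fam20c, FM105957 and an Egr1 probe, 0.0612 for Hsph1, Spry4 and the Spry1 probe used here, 0.0623 for Dmp1 and 0.0954 for Sost. Their directions were those given above, with a log2 difference of 1.82 for Dmp1 and -1.11 for Sost in the authors' deposited table.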

How the data were processed

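RNA of 12 calvarial samples was measured on one-colour Cy3 arrays from 200 ng of total RNA, per the labels. The authors deposited spot intensity values from the scanner software Agilent Feature Extraction, version 11.0.1.1 in the submitters' processing notes, with background subtracted per the file headers. They also deposited log2 quantile-normalized values and comparison tables with log2 differences, p-values and adjusted p-values, whose underlying test is not stated in those notes, the labels or the headers.

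Processed signals of 62976 spots per array were log2 transformed without control and outlier-marked spots, averaged per probe and centred on each array's 75th percentile. Probes well above background on at least 4 of 12 arrays were kept (30121 of 45598), and each gene was represented by its brightest probe on average. Names came from RefSeq (GRCr8) by accession for 21184 probes (46.5%), otherwise from the files, and can be old. All 12 arrays entered one fit in limma 3.58.1 (R 4.3.3, lmFit and eBayes) with group means and a term for the treated slides. All p-values are 2-sided. They were adjusted by Benjamini and Hochberg's method across every gene tested, and 0.05 was the threshold. Standard errors (SE) are limma's moderated ones.

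The comparison, the gene lists and the alternatives were chosen with earlier results of these data known. The gene with the smallest p of its list could be named, but for several lists it is not. Genes could also be named if they passed, if they were Sost, or if they belonged to the chaperone, immediate early or osteocyte list. Others were named after their values were seen: Spry4, Spred1, Fam20c, Strap, Dpm1, Mettl1, Trib2, Hspb7, Etv5, Ankh, and members of the osteoblast, collagen, Wnt, matrix, interferon, chemokine and ERK lists beyond the leading one. The fitting code was tested on simulated data. Alternatives covered scaling, background correction, the filter, the choice of probe, the arrays in the fit, the blocks for slide or replicate number, a trend with intensity, weights per array and leaving out each array.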

Additional observations from a re-analysis of the deposited data

Results flagged for a closer look

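Among groups of 4 arrays, 243 of named genes and 80 of list means, 15 values lay farther from the other arrays of their group than Dixon's criterion allows, where chance gives about 1 in 20. The total did not exceed that rate, with 8 values from named genes and 7 from list means. Of these 15 values, 9 belong to laser replicate 1 or bur replicate 3 and to genes or lists of marrow cells, platelets or proliferation. Laser replicate 1 had a mean of -0.51 for cell cycle genes against 1.20 to 1.35 on the other laser arrays, of -0.34 for erythroid markers against 2.62 to 3.14, and of -1.32 for B cell markers against 0.28 to 0.49. Bur replicate 3 had 1.99 for cell cycle genes against 0.06 to 0.38 and 3.34 for erythroid markers against 1.35 to 1.65. Among single genes on these 2 arrays, Mcm6, part of the MCM helicase that unwinds DNA for replication, stood at -2.23 on laser replicate 1 and at -0.85 on bur replicate 3, Tfrc, the transferrin receptor, at 1.1 on laser replicate 1, and the platelet receptor Gp1ba at -4.58 on bur replicate 3.

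Bur replicate 2 had the lowest mean of p53 targets of its group, 0.33 against 0.70 to 0.76, and of adipocyte markers, -1.59 against -0.49 to -0.27. Laser replicate 2 had the lowest Ccnd1 of the laser arrays, 1.58 against 2.17 to 2.27. Bur replicate 4 had the highest Hspa8 of the bur arrays, 8.66 against 8.5 to 8.52. Control replicate 2 had the lowest control values of Ankh, 1.06, and of Col4a2, -2.24.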

How the results depend on the processing

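The count of passing genes, 10, was 1 with no filter on dim probes, with only the 8 laser and bur arrays and with no slide block, 18 with the filter tightened to all 12 arrays and also with weights per array, 0 within slide 1 (limma, 1143 at an unadjusted p under 0.05) and 3 within slide 2. It ranged from 0 to 4 when single arrays were left out, and from 9 to 15 under the other scalings, where 8 to 10 of the original genes passed again. Of the genes with an unadjusted p under 0.05, 63.0% were higher with laser, and this share moved both ways with the setting. It was highest with the array median, at 82.6%, and was 74.5% in the authors' normalized table. The share fell to 54.2% when the scaling used only probes detected on every array. With only the 8 laser and bur arrays it was 57.1%. It was lowest within slide 2, at 51.9%, and the cause of this spread was not tested. The count of genes whose difference changed between slides, 0, was 1 after normexp and 0 to 8 when single arrays were left out, with 8 without laser replicate 1. The sign of Mepe turned with quantile normalization (-0.0496), in the authors' normalized table (-0.0694), within slide 1 (-0.1049), and without single arrays, where it ranged from -0.1191 to 0.1524. That of Tfrc turned without laser replicate 2, with a range of -0.0842 to 0.993 over the arrays left out.

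The labels number the samples of each group 1 to 4 without saying that a number pairs them. Deviations of same-numbered laser and bur arrays correlated at 0.58, 0.05, 0.53 and 0.40, and those of different numbers at -0.49 to 0.20. Laser replicate 2 correlated best with bur replicate 1 (0.20). The numbers were not taken as a pairing in the main fit, but these values do not settle whether they are one. With the replicate number as a block 0 genes passed in limma, 1921 had an unadjusted p under 0.05, and Sost had a difference of -1.68 (limma adjusted p = 0.548).

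The permutation test of Sost (-1.68) went from p = 0.02857 to 0.05556 with exchanges only within a slide, an alternative chosen after seeing the data, as was the chaperone mean without Hspa1a. Precision is limited by 4 arrays a group, and dim probes such as Sost and Cxcl9 depend on the background correction.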
